A study of Mus musculus with 24 samples.

Results

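The 8 genes described here encode receptors of the tumour necrosis factor (TNF) receptor family that T cells carry: Tnfrsf9 (CD137), Tnfrsf18 (GITR), Tnfrsf4 (OX40), Tnfrsf8 (CD30), Cd27, Tnfrsf1b (the type II TNF receptor), Fas and Tnfrsf25 (death receptor DR3). They were chosen by gene symbol and are 8 of the 48526 genes in the count tables. All 8 passed the low-count filter that left 14560 genes for testing. Receptors of this family are single-pass membrane proteins that are engaged by trimeric ligands, mostly on other cells. Their tails recruit TRAF adaptors, which lead to NF-kB and other kinase pathways, and Fas and Tnfrsf25 also have a death domain. On CD8 T cells, Tnfrsf9, Tnfrsf4 and Tnfrsf18 are known as co-stimulatory receptors whose surface level rises after antigen recognition, while resting T cells already carry Cd27 and Tnfrsf1b.

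The cells came from OT-1 mice, which carry a transgenic T cell receptor for an ovalbumin peptide, so that most of their CD8 T cells have one specificity, and their RNA was sequenced after culture. Whole splenocytes were cultured with 2 µg/mL of that peptide, and T cells were then purified by immunomagnetic negative selection. The 6 groups of 4 libraries were peptide with a TLR7 agonist at 72 h, peptide with a TLR2 agonist at 72 h, peptide alone (OVA) at 72 h, and the same TLR7, TLR2 and OVA conditions at 24 h. Every group, the OVA group included, received the peptide. The Toll-like receptor agonists were added 1 h before the peptide. The labels list Pam3CSK4, a TLR2 ligand, at 300 ng/mL, gardiquimod at 3 µg/mL and R848 at 10 µg/mL, and do not say which of gardiquimod and R848 the TLR7 libraries received. Neither the ages of the mice nor whether the 4 libraries of a group came from separate mice or cultures is given, so p-values measure only the spread between these libraries, which may be technical.

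Libraries held 10506711 to 27064067 counts. Cd8a lay between 457 and 904 CPM (counts-per-million, scaled for composition) and Cd3e between 107 and 321 CPM. Cd4 stayed at or under 2.00 CPM and Foxp3 at or under 1.34 CPM, in keeping with the label of CD8 T cells. The other listed markers of CD4 and regulatory T cells reached higher levels. Zbtb7b spanned 0.44 to 33.0 CPM, Ikzf2 4.54 to 29.1 CPM, Ctla4 89.3 to 1597 CPM and Il2ra 410 to 2199 CPM. Activated CD8 T cells also express Il2ra and Ctla4. The first principal component of log2 CPM over the tested genes held 60.2% of the variance and set the 72 h libraries apart from the 24 h ones, except for 8 libraries. Those 8, called the middle libraries here, scored between -20.5 and -1.21, whereas the other 24 h libraries scored 85.2 to 99.1 and the other 72 h libraries -90.5 to -56.5. They were replicates 1, 3 and 4 of TLR2 at 72 h, replicate 4 of OVA at 72 h, replicates 3 and 4 of TLR7 at 24 h, and replicates 1 and 3 of OVA at 24 h. Middle positions thus occurred at both times, and the labels give no reason for them. Results below are given with all 24 libraries and, where they differ, without the 8 middle ones. Leaving those out keeps a single TLR2 library at 72 h, whose spread is then assumed to be like that of the other groups. The 8 were picked by their position on a component that separates the times and that includes the receptors. Leaving them out thus tends to enlarge time differences, and p-values over time from that fit are no separate support for a rise.

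The co-stimulatory receptors Tnfrsf9, Tnfrsf18 and Tnfrsf4 were higher at 72 h than at 24 h with the TLR2 agonist, by log2 fold changes of 1.45 to 1.55, and their values ran the same way in the other conditions. Between an agonist and peptide alone, 1 receptor passed the test, Cd27, which was lower with the TLR7 agonist at 72 h. With the TLR2 agonist, 5 of the 8 receptors (Tnfrsf9, Tnfrsf18, Tnfrsf4, Tnfrsf8 and Fas) were higher at 72 h than at 24 h, where 21.7% of all tested genes were higher and 39% differed in either direction. With the TLR7 agonist, 3 receptors (Tnfrsf9, Tnfrsf18 and Tnfrsf8) were higher at 72 h, where 19% of all genes were higher and 43.2% differed. With peptide alone, only Tnfrsf4 was higher at 72 h, where 8.17% of all genes were higher and 18.6% differed. No receptor passed the threshold as lower at 72 h in any of the 3 conditions with all libraries. Negative log2 fold changes that did not pass were -0.41 for Fas and -0.32 for Cd27 with the TLR7 agonist, and -0.14 for Tnfrsf8 with peptide alone. The median log2 fold change of the 8 receptors was 1.12 with the TLR2 agonist, 0.46 with the TLR7 agonist and 0.58 with peptide alone, beside -0.01, -0.01 and 0.09 over all tested genes. Without the middle libraries, 5 receptors were higher at 72 h with the TLR2 agonist, 5 with the TLR7 agonist and 4 with peptide alone, where 24%, 26.7% and 26.3% of all genes were higher and 43.4%, 52.1% and 48.5% differed. The 5 shallowest libraries were replicates 1 and 2 of TLR7 at 72 h, 2 of TLR7 at 24 h, 4 of TLR2 at 24 h and 4 of OVA at 24 h. Without them, 3 receptors were called over time with the TLR2 agonist and 0 with the TLR7 agonist or peptide alone, where the calls over all 14949 genes tested were 2847, 5 and 0.

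Markers of cell types moved with time as well. Of 6 CD8 T cell markers, 3 were higher at 72 h than at 24 h in each condition, and their sums were 2573 to 3022 CPM against 1184 to 2430 CPM with the TLR7 agonist, 2070 to 2720 CPM against 1566 to 1889 CPM with the TLR2 agonist, and 2800 to 3283 CPM against 2088 to 2320 CPM with peptide alone. Of 12 B cell markers, 8 were lower at 72 h with the TLR7 agonist, 1 with the TLR2 agonist and 8 with peptide alone. Over all genes, 24.2%, 17.4% and 10.4% were lower in these comparisons, and 19%, 21.7% and 8.17% were higher. The part of these marker shifts in the receptor values was not tested.

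Tnfrsf9 was the most abundant of the 8 receptors. At 72 h it stood at 1971, 1917, 1961 and 1837 CPM with the TLR7 agonist, at 991, 1722, 877 and 1057 CPM with the TLR2 agonist, and at 1946, 1788, 795 and 911 CPM with peptide alone. At 24 h it stood at 363, 349.6, 1027 and 918 CPM with the TLR7 agonist, at 398, 391, 408 and 388 CPM with the TLR2 agonist, and at 1049, 421, 1115 and 396 CPM with peptide alone. The 72 h and 24 h libraries did not overlap with either agonist, as held for 48.5% of all genes with the TLR7 and 51.1% with the TLR2 agonist. The 4 high values at 24 h, 918 to 1115 CPM, belonged to the 4 middle libraries of that time. The TLR2 cultures rose by a log2 fold change of 1.55 between the times (SE 0.383, adjusted p = 0.00889) and the TLR7 cultures by 1.53 (SE 0.383, adjusted p = 0.0047). Both calls held in each of the 8 fits that left out 1 library, and without the middle libraries the values were 2.15 and 2.44. With peptide alone the log2 fold change of Tnfrsf9 was 0.87 (SE 0.377, adjusted p = 0.0937), and without the middle libraries it was 1.92 (SE 0.295, adjusted p = 8.24e-05). In bulk RNA of this kind, fewer cells that express a gene and less RNA per cell cannot be told apart.

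Tnfrsf18, whose product binds the ligand GITRL, had the same order of group means at a lower level. At 72 h it measured 370.1, 346, 358 and 308 CPM with the TLR7 agonist, 203, 271, 173 and 171 CPM with the TLR2 agonist, and 395, 338, 237 and 199 CPM with peptide alone. At 24 h it measured 64.1, 39.3, 240.3 and 168 CPM with the TLR7 agonist, 85.6, 43.7, 85.2 and 67 CPM with the TLR2 agonist, and 227, 69.3, 221 and 63.2 CPM with peptide alone. The time groups overlapped only with peptide alone, where 2 of the 24 h libraries exceeded the lowest 72 h one. Over all genes, the times did not overlap for 48.5% with the TLR7 agonist and 51.1% with the TLR2 agonist. The rise was 1.54 on the log2 scale with the TLR2 agonist (SE 0.459, adjusted p = 0.0178) and 1.43 with the TLR7 agonist (SE 0.457, adjusted p = 0.0175). Without the middle libraries it was 1.97 with the TLR2 agonist (SE 0.311, adjusted p = 0.000132) and 2.75 with the TLR7 agonist (SE 0.312, adjusted p = 4.39e-06). With peptide alone the log2 fold change was 1.01 (SE 0.453, adjusted p = 0.103), and 2.31 without the middle libraries (SE 0.311, adjusted p = 2.53e-05). The TLR2 call of Tnfrsf18 was lost without replicate 2 at 72 h (1.37, adjusted p = 0.0698), and the TLR7 call without replicate 1 (1.21, adjusted p = 0.0649) or 2 (1.13, adjusted p = 0.0593) at 24 h.

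Tnfrsf4, the receptor for the ligand OX40L, differed from this pair in that peptide alone gave its highest mean. At 72 h its values were 215, 232, 345 and 269.6 CPM with the TLR7 agonist, 222, 337, 206 and 206 CPM with the TLR2 agonist, and 374, 461, 259 and 259.9 CPM with peptide alone. At 24 h they were 71.4, 48.6, 306 and 203 CPM with the TLR7 agonist, 94.3, 76.3, 99.4 and 85.5 CPM with the TLR2 agonist, and 245, 82.2, 145 and 51.8 CPM with peptide alone. Peptide alone and the TLR2 agonist separated the times completely, as they did for 10.6% and 51.1% of all genes. With the TLR7 agonist, 1 library at 24 h, a middle one, exceeded 3 of the 4 at 72 h. The rise passed the threshold with peptide alone (log2 fold change 1.37, SE 0.453, adjusted p = 0.0429) and with the TLR2 agonist (1.45, SE 0.455, adjusted p = 0.0214). With the TLR7 agonist the log2 fold change of Tnfrsf4 was 0.76 (SE 0.448, adjusted p = 0.171), and 2.16 without the middle libraries, which passed. Without the single highest TLR7 library at 24 h, replicate 3, it was 1.31 (adjusted p = 0.0243). The call with peptide alone was lost in 6 of the 8 fits that left out 1 library (any but replicate 4 at 72 h and replicate 1 at 24 h), with log2 fold changes of 1.10 to 1.48 in those 6, and it was 2.47 without the middle libraries (SE 0.305, adjusted p = 1.14e-05). The TLR2 call was lost without replicate 2 at 72 h (1.25, adjusted p = 0.0867) or at 24 h (1.38, adjusted p = 0.0514).

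**Figure D1:**
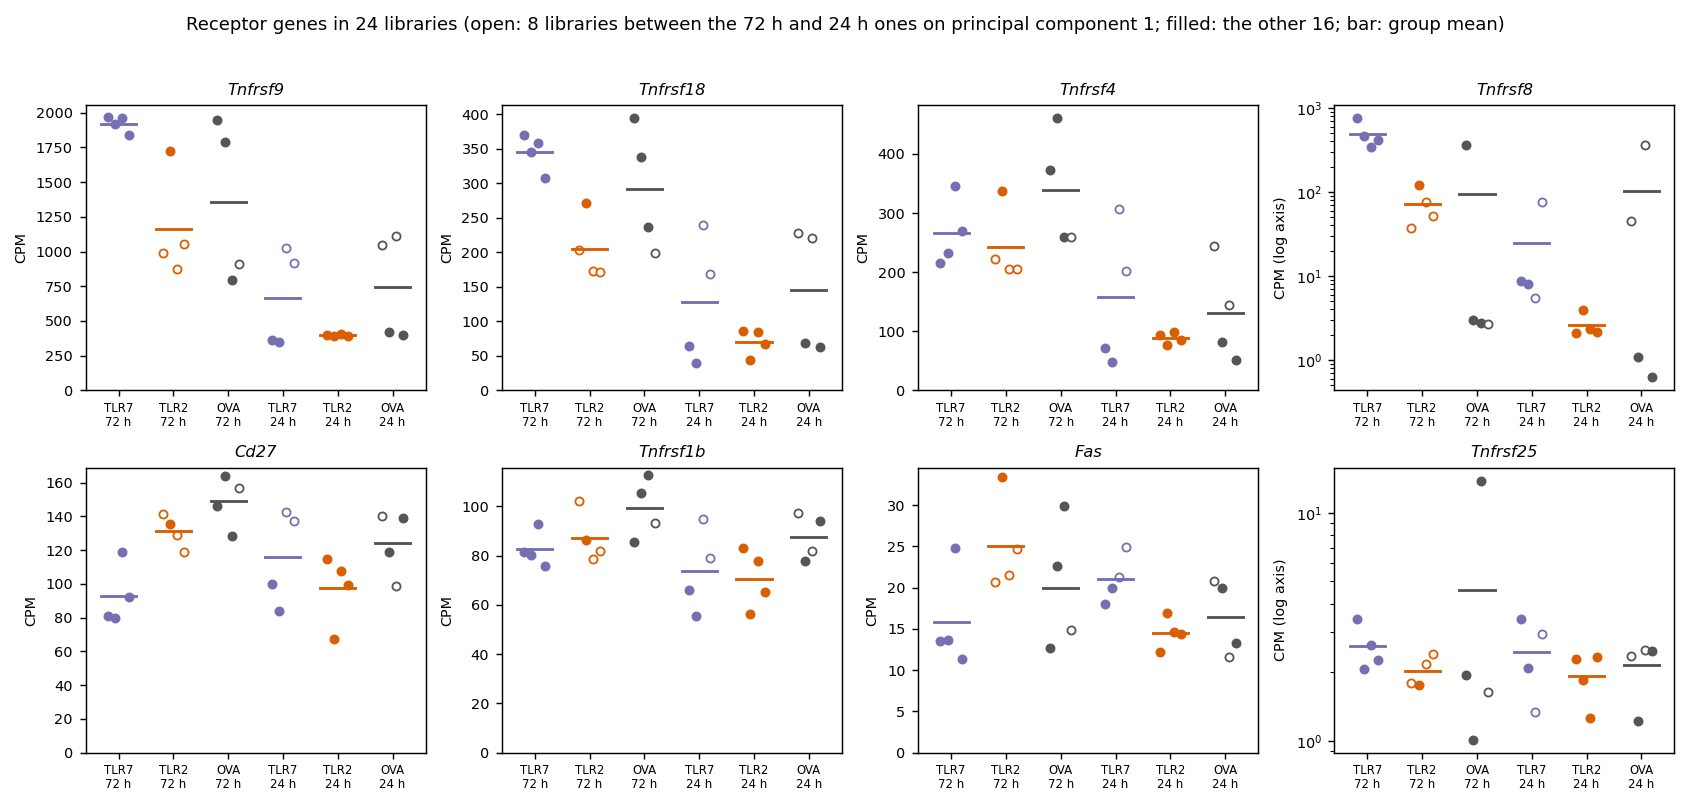
CPM of the 8 receptor genes (y axes, log for Tnfrsf8 and Tnfrsf25) in each of the 24 libraries by group, with open circles for the 8 middle libraries and a bar at the group mean. Tnfrsf9 sat between 795 and 1971 CPM in the filled 72 h libraries and between 349.6 and 421 CPM in the filled 24 h libraries, and the open circles lay between 877 and 1115 CPM at both times.

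These 3 receptors were higher in every middle library than in every other 24 h library, and the middle libraries overlapped with the other 72 h ones. In the 8 middle libraries, from both times, Tnfrsf9 spanned 877 to 1115 CPM, Tnfrsf18 168 to 240.3 CPM and Tnfrsf4 145 to 306 CPM. In the 8 remaining 72 h libraries the ranges were 795 to 1971 CPM for Tnfrsf9, 237 to 395 CPM for Tnfrsf18 and 215 to 461 CPM for Tnfrsf4. In the 8 remaining 24 h libraries they were 349.6 to 421 CPM, 39.3 to 85.6 CPM and 48.6 to 99.4 CPM. The receptors are themselves among the genes on which the component was computed. Over the 24 libraries, log2 CPM of the 3 genes correlated pairwise with Pearson r of 0.900 to 0.962, and their deviations from group means with r of 0.888 to 0.929, which describes libraries that share culture, depth and position on this component. All 3 genes lie on chromosome 4, and Tnfrsf4 and Tnfrsf18 are 9551 bases apart in the same orientation, with 2 annotated genes between them.

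**Figure D2:**
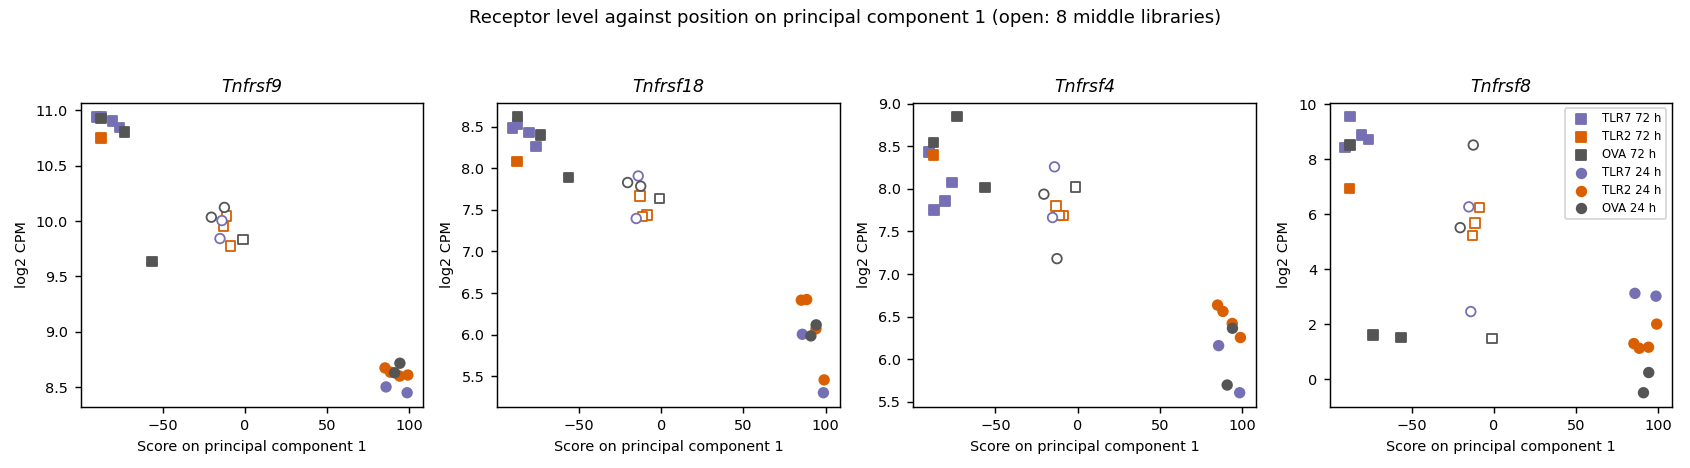
Log2 CPM of Tnfrsf9, Tnfrsf18, Tnfrsf4 and Tnfrsf8 (y axes) against the score of each library on the first principal component of all tested genes (x axis), with squares for 72 h, circles for 24 h, colours for the condition and open symbols for the 8 middle libraries. The first 3 genes are lowest in the filled 24 h libraries, while their middle and filled 72 h libraries overlap in part, and Tnfrsf8 spreads over 2.71 to 365 CPM within the middle libraries alone.

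The start regions of the 3 receptors that moved together are printed beside that of Tnfrsf8, another receptor called over time with both agonists, so that their letters can be compared. Each line holds the 250 bases before an annotated RefSeq transcription start on GRCm38.p6, read 5′ to 3′ on the strand of the gene. Capitals mark matches, on either strand and merged where they overlap, to GGGNNNNNCC, a core of NF-kB sites, and to TGANTCA, the core of AP-1 sites.
Tnfrsf9, first start, chr4:150919905-150920154, plus strand: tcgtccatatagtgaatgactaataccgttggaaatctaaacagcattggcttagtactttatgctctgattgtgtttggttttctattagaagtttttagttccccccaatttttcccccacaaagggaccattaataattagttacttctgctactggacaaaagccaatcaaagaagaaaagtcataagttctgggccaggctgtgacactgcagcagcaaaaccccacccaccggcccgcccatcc
Tnfrsf9, second start, chr4:150927749-150927998, plus strand: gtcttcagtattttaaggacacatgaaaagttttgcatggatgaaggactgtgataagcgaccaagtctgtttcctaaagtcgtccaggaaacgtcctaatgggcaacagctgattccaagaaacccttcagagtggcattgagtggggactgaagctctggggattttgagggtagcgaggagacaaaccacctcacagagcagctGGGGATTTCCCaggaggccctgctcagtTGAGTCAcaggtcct
Tnfrsf18, chr4:156026072-156026321, plus strand: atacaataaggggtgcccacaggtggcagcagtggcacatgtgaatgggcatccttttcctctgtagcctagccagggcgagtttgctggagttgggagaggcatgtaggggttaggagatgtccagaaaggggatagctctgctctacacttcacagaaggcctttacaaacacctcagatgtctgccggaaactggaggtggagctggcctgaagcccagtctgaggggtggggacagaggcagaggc
Tnfrsf4, chr4:156013445-156013694, plus strand: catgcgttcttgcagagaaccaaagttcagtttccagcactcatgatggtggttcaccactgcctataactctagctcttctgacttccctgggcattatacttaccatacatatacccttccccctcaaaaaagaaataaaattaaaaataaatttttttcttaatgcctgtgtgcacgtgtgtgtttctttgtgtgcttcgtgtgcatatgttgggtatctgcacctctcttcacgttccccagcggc
Tnfrsf8, chr4:145315165-145315414, minus strand: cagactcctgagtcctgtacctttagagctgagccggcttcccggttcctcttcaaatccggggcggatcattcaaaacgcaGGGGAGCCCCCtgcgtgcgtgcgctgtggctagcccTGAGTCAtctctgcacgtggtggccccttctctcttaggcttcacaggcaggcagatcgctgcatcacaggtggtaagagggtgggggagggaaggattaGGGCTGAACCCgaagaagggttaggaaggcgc
The window at the second Tnfrsf9 start held GGGGATTTCC from 43 to 34 bases before the start and TGAGTCA from 15 to 9 bases before it. The Tnfrsf8 window held GGGGAGCCCC at 168 to 159 bases, TGAGTCA at 132 to 126 bases and GGGCTGAACC at 32 to 23 bases before the start. The windows of Tnfrsf4, Tnfrsf18 and the first Tnfrsf9 start held neither pattern. Over the 10 windows of the 8 receptors, 7 held the NF-kB letters, against 45.8% of 32851 mouse start windows of 250 bases, and 3 held the AP-1 letters (Tnfrsf9 at its second start, Tnfrsf8 and Fas), against 6.75%. A match is only a description of the letters in the window.

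Tnfrsf8, which encodes CD30, a marker of a subset of activated lymphocytes, had by far the widest range of the 8 receptors. At 72 h it stood at 750.2, 469, 342 and 418 CPM with the TLR7 agonist, at 37.3, 122, 75.8 and 51.1 CPM with the TLR2 agonist, and at 366, 2.96, 2.78 and 2.71 CPM with peptide alone. At 24 h it stood at 8.61, 8.01, 5.41 and 76.8 CPM with the TLR7 agonist, at 2.09, 3.92, 2.36 and 2.15 CPM with the TLR2 agonist, and at 45.5, 1.09, 365 and 0.619 CPM with peptide alone. The groups with an agonist were thus fairly even at 72 h, whereas in each peptide-alone group 1 library was above 360 CPM and at least 2 were under 3 CPM. Tnfrsf8 rose between the times by 4.31 on the log2 scale with the TLR7 agonist (SE 1.61, adjusted p = 0.0363) and by 4.75 with the TLR2 agonist (SE 1.69, adjusted p = 0.0332). These calls were lost in 6 and 5 of the 8 fits that left out 1 library, with log2 fold changes of at least 3.98 in the fits that lost them. The log2 fold changes without the middle libraries were 5.90 (adjusted p = 0.00697) and 5.55 (adjusted p = 0.00455).

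At 72 h, Tnfrsf8 averaged 495 ± 178 CPM with the TLR7 agonist and 93.6 ± 182 CPM with peptide alone (SD, n = 4 each), and the log2 fold change of 2.40 did not pass the threshold (SE 1.48, adjusted p = 0.409). This comparison rests on the single high library of the OVA group. Without that library, replicate 1, the log2 fold change was 7.53 (adjusted p = 0.00713), and the change in the TLR7 effect between 72 h and 24 h was 9.62 (adjusted p = 0.0104), against 4.45 with it (SE 2.08, adjusted p = 0.295). Nothing in the labels sets that library apart, and by its score on the first principal component it is an ordinary 72 h library. With peptide alone, the time difference of Tnfrsf8 was -0.14 with all libraries (SE 1.4, adjusted p = 0.948) and 7.17 without the 3 middle ones (SE 1.9, adjusted p = 0.00579). In that fit, 2 of the 3 remaining 72 h libraries were at 2.96 and 2.78 CPM, 1 was at 366 CPM, and the 2 remaining 24 h libraries were at 1.09 and 0.619 CPM.

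Cd27, the receptor for CD70 and a gene of naive and memory T cells, was the one receptor called in an agonist comparison. Its 72 h values were 81.2, 79.8, 119 and 92.3 CPM with the TLR7 agonist, 141, 135, 129 and 119 CPM with the TLR2 agonist, and 146, 164, 129 and 157 CPM with peptide alone. Its 24 h values were 99.7, 83.8, 143 and 137 CPM with the TLR7 agonist, 115, 67.3, 108 and 99.3 CPM with the TLR2 agonist, and 140.4, 119, 98.9 and 139 CPM with peptide alone. At 72 h all 4 TLR7 libraries were below all 4 OVA libraries, as they were for 8.7% of tested genes in either direction. Cd27 was lower with the TLR7 agonist than with peptide alone at 72 h, by a log2 fold change of -0.68 (SE 0.184, adjusted p = 0.0433), where 3.21% of all genes were lower and 3.62% differed. Without the middle libraries it was -0.60 (adjusted p = 0.118). Over the 8 fits that left out 1 library it ranged between -0.82 and -0.56 and passed in 1, that without replicate 3 of TLR7 at 72 h. The summed level of 12 B cell markers was also lower with the TLR7 agonist at 72 h, at 135 to 273 CPM against 379 to 736 CPM with peptide alone. The part of B cell RNA in the Cd27 value was not tested.

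Tnfrsf1b, the TNF receptor without a death domain, was the steadiest of the 8, with 55.3 to 113 CPM over all libraries. Group means at 72 h were 82.5 ± 7.23 CPM with the TLR7 agonist, 87.3 ± 10.5 CPM with the TLR2 agonist and 99.1 ± 12.2 CPM with peptide alone (SD, n = 4 each). At 24 h they were 73.8 ± 17 CPM, 70.5 ± 12 CPM and 87.7 ± 9.43 CPM in the same order of conditions (SD, n = 4 each). No time or agonist difference of Tnfrsf1b passed the threshold with all libraries, and all 6 groups overlapped with their neighbours. Without the middle libraries its time difference with the TLR7 agonist was 0.45 on the log2 scale (SE 0.177, adjusted p = 0.0439), beside 0.16 with them (SE 0.156, adjusted p = 0.406).

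Fas, the death receptor through which Fas ligand triggers apoptosis of activated T cells, was measured at 11.3 to 33.4 CPM. At 72 h it measured 13.5, 13.6, 24.8 and 11.3 CPM with the TLR7 agonist, 20.7, 33.4, 21.5 and 24.7 CPM with the TLR2 agonist, and 12.6, 22.6, 29.9 and 14.8 CPM with peptide alone. At 24 h it measured 18, 19.9, 21.2 and 24.9 CPM with the TLR7 agonist, 12.2, 16.9, 14.6 and 14.3 CPM with the TLR2 agonist, and 20.8, 19.99, 11.6 and 13.3 CPM with peptide alone. Only with the TLR2 agonist did the times not overlap, as held for 51.1% of all genes. There Fas rose by 0.79 on the log2 scale (SE 0.271, adjusted p = 0.0292), or by 1.23 without the middle libraries. With the TLR7 agonist the difference had the opposite sign, -0.41 (SE 0.271, adjusted p = 0.22). TLR7 and TLR2 libraries at 72 h differed by -0.67 (SE 0.271, adjusted p = 0.13). Without replicate 3 of TLR7 at 72 h, the library at 24.8 CPM, both passed, at -0.72 (adjusted p = 0.0425) and -0.97 (adjusted p = 0.0453). The TLR2 call was lost without replicate 2 at 72 h (0.62, adjusted p = 0.123) and without replicate 1 or 3 at 24 h.

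Tnfrsf25, the receptor for the ligand TL1A, was near the lower end of what these libraries resolve, with 22 to 304 counts per library. At 72 h it averaged 2.6 ± 0.595 CPM with the TLR7 agonist, 2.03 ± 0.312 CPM with the TLR2 agonist and 4.6 ± 6.17 CPM with peptide alone (SD, n = 4 each). At 24 h it averaged 2.45 ± 0.921 CPM with the TLR7 agonist, 1.93 ± 0.498 CPM with the TLR2 agonist and 2.14 ± 0.615 CPM with peptide alone (SD, n = 4 each). The large mean of OVA at 72 h came from 1 library at 13.8 CPM, while the other 3 were at 1.94, 1.01 and 1.63 CPM. Tnfrsf25 passed the threshold in none of the comparisons, and without that library its difference between the TLR7 agonist and peptide alone at 72 h changed sign, to 0.76 against -0.82 with it.

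The agonist comparisons as a whole gave 1 call in 48, that of Cd27, and 0 in 48 without the middle libraries. In that fit 1.63% of all genes were called for TLR7 against OVA at 72 h, 2.52% for that pair at 24 h, 1.29% for TLR7 against TLR2 at 24 h and 0% in the other 3 comparisons. With the TLR2 agonist against peptide alone 0 of the 8 receptors were called at 72 h and 0 at 24 h by edgeR, where 0% of all genes were called at either time. Of the receptors, 1 at 72 h and 3 at 24 h had an unadjusted p under 0.05. With the TLR7 agonist against peptide alone at 24 h 0 were called, where 0.22% of all genes were, and 0 had an unadjusted p under 0.05. The direct comparison of the TLR7 with the TLR2 agonist called 0 receptors at 72 h, where 4.8% of all genes were called and 2 receptors had an unadjusted p under 0.05. It called 0 at 24 h, where 1.24% of all genes were called and 0 receptors had such a p. At 24 h, 2 of the 4 TLR7 and 2 of the 4 OVA libraries were middle ones. The log2 fold change of Tnfrsf9 with the TLR2 agonist against peptide alone was -0.91 with them (SE 0.378, adjusted p = 0.27) and -0.049 without. The time effect was not shown to differ between an agonist and peptide alone. By edgeR, 0 of 8 receptors passed the interaction test for TLR2, where 0% of all genes did and 1 receptor had an unadjusted p under 0.05. For TLR7, 0 passed, where 0.81% did (0.285% without the middle libraries) and 2 receptors had such a p.

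**Figure D3:**
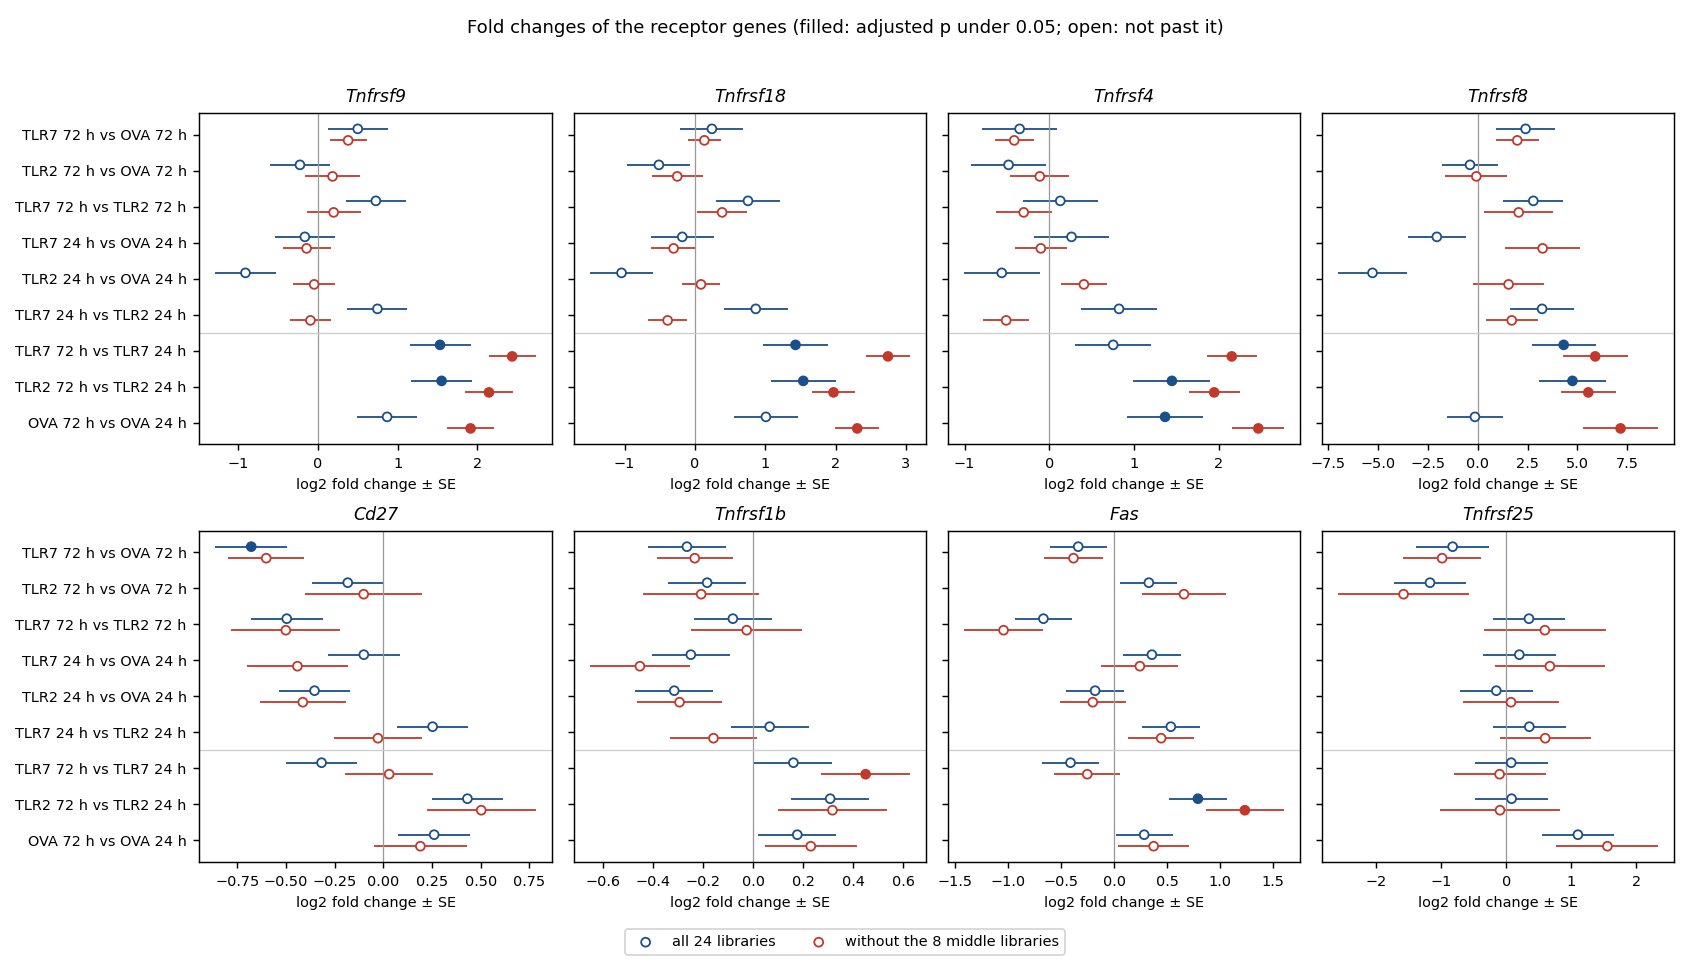
Log2 fold changes with SE bars of the 8 receptors (x axes) in 9 comparisons (y axis), from all 24 libraries in blue and without the 8 middle libraries in red, filled where the adjusted p was under 0.05. The 3 time comparisons at the bottom are filled for Tnfrsf9, Tnfrsf18, Tnfrsf4 and Tnfrsf8 without the middle libraries, and Cd27 has the single filled point above the line.

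A joint test of any difference over the 6 groups called 5 of the 8 receptors, where 63.3% of all genes were called. The test called 6 without the middle libraries, where 63.4% were called, and DESeq2 called 6 with all libraries. The 5 were Tnfrsf9 (adjusted p = 0.00112), Tnfrsf18 (0.00299), Tnfrsf4 (0.00875), Tnfrsf8 (0.0125) and Cd27 (0.0199). Tnfrsf1b (0.073), Fas (0.0905) and Tnfrsf25 (0.256) did not pass. When the 6 groups of each receptor were put in order of mean CPM, none of the 40 steps between neighbouring groups passed the threshold (adjusted p between 0.216 and 0.982), and 39 of the 40 overlapped. The exception was Tnfrsf8, whose TLR7 libraries at 24 h all lay above the TLR2 libraries at 24 h, as 14% of all genes did in either direction. For Tnfrsf9 and Tnfrsf18 the order was TLR7 at 72 h, OVA at 72 h, TLR2 at 72 h, OVA at 24 h, TLR7 at 24 h and TLR2 at 24 h. For Tnfrsf4 it began with OVA at 72 h, and for Cd27 it began with OVA at 72 h and ended with TLR7 at 72 h. Between genes, the median level per kilobase of exon was 350.6 CPM per kb for Tnfrsf9, 154 for Tnfrsf4, 132 for Tnfrsf18, 51.1 for Cd27, 21.5 for Tnfrsf1b, 9.19 for Fas, 6.64 for Tnfrsf8 and 0.975 for Tnfrsf25.

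The ligand genes that passed the test did so mainly in comparisons of the TLR7 agonist. Of 9 ligand genes, 7 were tested; Tnfsf18 (GITRL), with no count in 20 of 24 libraries, and Tnfsf15 (TL1A), with none in 11, reached at most 0.0909 and 0.477 CPM, and Cd70 reached 0.707 CPM. Between 72 h and 24 h with the TLR7 agonist, 2 ligands were higher and 4 lower, with a median log2 fold change of -1.30 beside -0.01 over all genes, of which 19% were higher and 24.2% lower. With the TLR2 agonist and with peptide alone, no ligand passed the threshold between the times. With the middle libraries left out 8 ligands were tested, and 2 were higher and 5 lower with the TLR7 agonist, 1 higher with the TLR2 agonist and 1 higher with peptide alone. Between the TLR7 agonist and peptide alone, Tnf passed at 24 h, where 0.22% of all genes did. At 72 h Tnfsf8 and Lta passed, where 3.62% of all genes did.

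Tnfsf8, the ligand of CD30, measured 9.87, 16, 33.5 and 10.3 CPM with the TLR7 agonist at 72 h, against 76.9, 60.3, 59.8 and 141 CPM with the TLR2 agonist and 38.1, 100.3, 49.5 and 99.9 CPM with peptide alone. All 4 TLR7 libraries were below every library of the other conditions. Likewise 23.7% of all genes separated the TLR7 from the TLR2 agonist, and 8.7% separated it from peptide alone. Its log2 fold change was -2.04 against peptide alone (SE 0.403, adjusted p = 0.00749; -1.79 and adjusted p = 0.0321 without the middle libraries) and -2.27 against the TLR2 agonist (SE 0.406, adjusted p = 0.0133). At 24 h the TLR7 libraries had instead the highest mean, 157 ± 53 CPM against 79.4 ± 24.5 CPM with peptide alone (SD, n = 4 each). With the TLR7 agonist, Tnfsf8 was lower at 72 h than at 24 h by -3.17 on the log2 scale (SE 0.42, adjusted p = 0.000253). The TLR7 effect at 72 h minus that at 24 h was -3.03 (SE 0.558, adjusted p = 0.018; adjusted p = 0.0723 without the middle libraries). With 1 library left out, the call against peptide alone was lost without replicate 1 or 4 of TLR7 (-1.80 and -1.81), the call against the TLR2 agonist in 4 of 8 fits and the interaction in 3 of 16. Its receptor Tnfrsf8 stood at 342 to 750.2 CPM in the same 4 libraries.

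Lta encodes lymphotoxin alpha, which like TNF binds the type II TNF receptor. It measured 177, 154, 133 and 179 CPM with the TLR7 agonist at 72 h, against 56.9, 70.5, 59 and 54.3 CPM with the TLR2 agonist and 131, 34.3, 20.3 and 48.6 CPM with peptide alone. The TLR7 libraries were above all of these, narrowly so above replicate 1 of OVA, the library that was also high in Tnfrsf8. Over all genes, 8.7% did not overlap between TLR7 and OVA at 72 h, and 23.7% between TLR7 and TLR2. Lta was higher with the TLR7 agonist than with peptide alone by 1.46 (SE 0.383, adjusted p = 0.0368; adjusted p = 0.123 without the middle libraries) and than with the TLR2 agonist by 1.42 (SE 0.382, adjusted p = 0.0399). At 24 h Lta averaged 35.4 ± 12 CPM with the TLR7 agonist and 70.5 ± 23.7 CPM with peptide alone (SD, n = 4 each). Its TLR7 effect at 72 h minus that at 24 h was 2.45 (SE 0.539, adjusted p = 0.0409; adjusted p = 0.172 without the middle libraries). The agonist calls of Lta were each lost in 6 of the 8 fits that left out 1 library, with log2 fold changes of at least 1.17 in those fits, and the interaction was lost in 11 of 16.

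Tnf, the ligand of Tnfrsf1b, measured 45.3, 37.3, 23.8 and 28.1 CPM with the TLR7 agonist at 24 h, against 15.3, 12, 16.5 and 9.19 CPM with peptide alone. The groups did not overlap, as held for 6.64% of all genes, and Tnf was higher by 1.34 (SE 0.283, adjusted p = 0.0483), or by 2.01 without the middle libraries (adjusted p = 0.0105). At 72 h the TLR7 libraries were at 17.3 to 24 CPM, lower than at 24 h by -0.71 (SE 0.279, adjusted p = 0.0457). Fasl, the ligand of Fas, measured 28.2, 35.1, 37.4 and 38.9 CPM with the TLR7 agonist at 72 h, against 2.5, 3.91, 30.8 and 17.1 CPM at 24 h, a rise of 1.35 (SE 0.474, adjusted p = 0.0277), or 3.49 without the middle libraries (SE 0.376, adjusted p = 2.78e-06). The 2 higher 24 h values are the middle libraries. With 1 library left out, the call of Tnf at 24 h was lost in 7 of 8 fits, that over time in 6 of 8, and that of Fasl in 4 of 8. Tnfsf4 (OX40L) and Tnfsf9 (CD137L), usually found on antigen-presenting cells, were low. Tnfsf4 averaged 2.6 ± 2.31 CPM with the TLR7 agonist at 72 h and 12.2 ± 1.55 CPM at 24 h (SD, n = 4 each). Tnfsf9 averaged 1.28 ± 0.949 CPM at 72 h and 3.55 ± 0.50 CPM at 24 h with that agonist (SD, n = 4 each). Both were lower at 72 h, by -2.18 for Tnfsf4 (SE 0.521, adjusted p = 0.00356) and -1.44 for Tnfsf9 (SE 0.375, adjusted p = 0.00588). The 12 B cell markers summed to 135 to 273 CPM with the TLR7 agonist at 72 h, against 363 to 565 CPM at 24 h. The 8 dendritic cell markers summed to 316 to 618 CPM at 72 h and 788 to 970 CPM at 24 h with that agonist. Most of that sum was Ccr7, which T cells also express. Of these markers, 3 were lower at 72 h, as 24.2% of all genes were. The part of these cells in the ligand values was not tested.

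**Figure D4:**
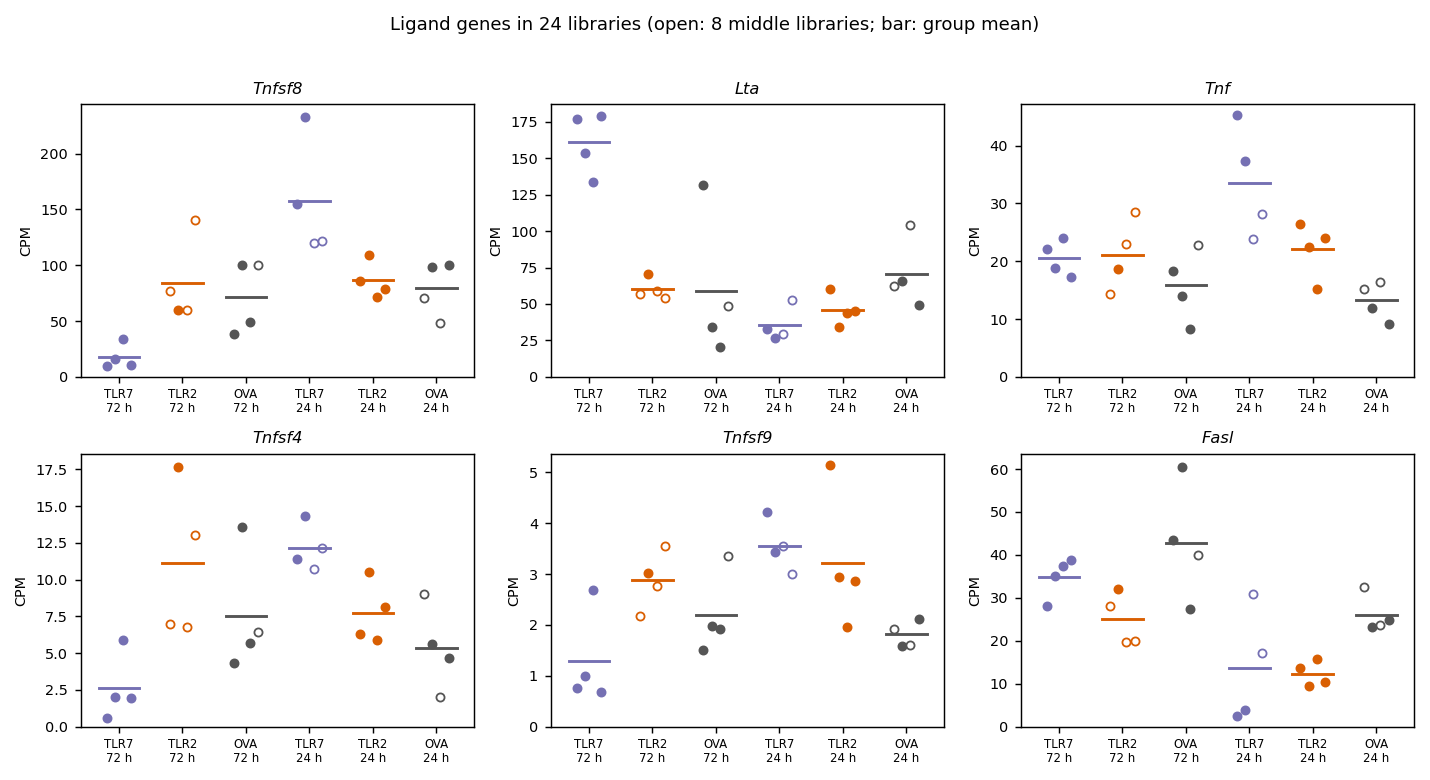
CPM of 6 ligand genes (y axes) in each of the 24 libraries by group, with open circles for the 8 middle libraries and a bar at the group mean. The 4 TLR7 libraries at 72 h sit between 9.87 and 33.5 CPM for Tnfsf8, below every other library, and between 133 and 179 CPM for Lta, above every other library.

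Genes downstream of the receptors were followed as 18 TRAF and death-domain adaptors with their regulators and 15 NF-kB subunits and feedback targets, all tested. Traf1, an adaptor bound by most of these co-stimulatory receptors, was higher at 72 h than at 24 h with the TLR7 agonist by 1.35 (SE 0.351, adjusted p = 0.00587; 2.06 without the middle libraries) and with the TLR2 agonist by 1.54 (SE 0.353, adjusted p = 0.00798). Of the adaptors, 3 were higher and 5 lower at 72 h with the TLR7 agonist, 4 higher and 2 lower with the TLR2 agonist, and 1 higher with peptide alone. In these comparisons 19%, 21.7% and 8.17% of all genes were higher and 24.2%, 17.4% and 10.4% lower. The adaptor counts without the middle libraries were 5 and 5, 5 and 2, and 7 and 3. Cflar, which encodes the caspase-8 inhibitor c-FLIP, was higher with the TLR7 agonist than with peptide alone at 24 h by 1.13 (SE 0.198, adjusted p = 0.0283) and than with the TLR2 agonist by 0.92 (adjusted p = 0.0254). At 72 h Cflar was lower with the TLR7 than with the TLR2 agonist by -0.79 (adjusted p = 0.0301), and Casp8, the initiator caspase of Fas, was higher by 0.60 (adjusted p = 0.0343). Birc3, an inhibitor of apoptosis bound by TRAF proteins, was lower with the TLR7 agonist than with peptide alone at 72 h by -0.63 (adjusted p = 0.0415; 0.0965 without the middle libraries). The TLR7 effect at 72 h minus that at 24 h was -1.27 for Cflar (SE 0.277, adjusted p = 0.0398) and -1.02 for Birc3 (SE 0.239, adjusted p = 0.0452; 0.129 without the middle libraries). The Traf1 calls held in every fit that left out 1 library, while the agonist calls of Cflar, Casp8 and Birc3 were lost in 3 to 6 of 8 fits and their interactions in 12 of 16.

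Of the NF-kB genes, 1 was higher and 9 lower at 72 h than at 24 h with the TLR7 agonist, 1 higher and 1 lower with the TLR2 agonist, and 1 higher and 4 lower with peptide alone. The shares over all genes are those given for the adaptors. Without the middle libraries the counts were 2 and 9, 2 and 6, and 2 and 6. Rel, the c-Rel subunit, was lower at 72 h with the TLR7 agonist by -2.22 (SE 0.361, adjusted p = 0.00052). Nfkb1 was lower at 72 h in all 3 conditions, by -0.54 with the TLR7 agonist (adjusted p = 0.00752), by -0.47 with the TLR2 agonist (adjusted p = 0.0215; -0.80 without the middle libraries) and by -0.62 with peptide alone (adjusted p = 0.0333). Tnfaip3, the feedback inhibitor A20, was higher at 72 h with the TLR2 agonist by 1.73 (SE 0.48, adjusted p = 0.0132) and with peptide alone by 1.49 (SE 0.477, adjusted p = 0.04; 2.36 without the middle libraries). Against peptide alone at 24 h, the TLR7 agonist raised 1 of the 15, Nfkbiz, an inducible NF-kB cofactor, by 1.44 (SE 0.273, adjusted p = 0.0286). At 72 h, 4 of the 15 were lower with the TLR7 than with the TLR2 agonist, among them Rel (-1.64, adjusted p = 0.0183) and Bcl2a1d (-1.89, adjusted p = 0.027), a gene with near-identical copies whose reads may be shared. None of the adaptor, NF-kB, ligand or other receptor calls between the 2 agonists at 72 h passed without the middle libraries, where 1 TLR2 library was left and 0% of all genes were called. With 1 library left out, the time calls of Rel and Nfkb1 with the TLR7 agonist held in all 8 fits, and the other calls named here were lost in 1 to 6 of 8.

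Among 20 other genes of the receptor family, 14 were tested. Between 72 h and 24 h, 1 was higher and 5 lower with the TLR7 agonist, 4 higher and 2 lower with the TLR2 agonist, and 0 higher and 3 lower with peptide alone. Over all genes, 19% were higher and 24.2% lower with the TLR7 agonist, 21.7% and 17.4% with the TLR2 agonist, and 8.17% and 10.4% with peptide alone. With the middle libraries left out 15 were tested, and 5 were higher and 6 lower, 5 and 4, and 5 and 4 in the same order. Tnfrsf26 was higher at 72 h with the TLR2 agonist by 2.91 (SE 0.632, adjusted p = 0.00778). Cd40 and Tnfrsf13c are receptors of B cells. Cd40 was lower at 72 h than at 24 h with peptide alone by -3.53 (SE 0.865, adjusted p = 0.0333; -5.30 without the middle libraries). With the TLR7 agonist at 72 h Cd40 averaged 0.0319 CPM, under the level of 3 counts. This was lower than its 2.92 CPM at 24 h (adjusted p = 0.00147; 9.78e-06 without the middle libraries) and than its 2.36 CPM with the TLR2 agonist at 72 h (adjusted p = 0.0183). Tnfrsf13c was lower with the TLR7 agonist against peptide alone at 72 h by -2.23 (SE 0.4, adjusted p = 0.0053; -2.05 and still past the threshold without the middle libraries). Of the 12 B cell markers, 3 were lower and 0 higher in this last comparison, where 3.21% of all genes were lower. Of these markers, 7 were lower with the TLR7 than with the TLR2 agonist at 72 h, where 4.8% of all genes differed. Most of the summed level of these markers was Ighm, at 127 to 689 CPM per library. The calls of Tnfrsf26 and Tnfrsf13c held in each fit that left out 1 library, as did that of Cd40 over time with the TLR7 agonist. The Cd40 call with peptide alone and that between the agonists were each lost in 5 of 8. The part of B cell RNA in the Cd40 and Tnfrsf13c values was not tested.

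The genes outside the family whose log2 CPM ran closest to each receptor over the 24 libraries are given as a description, since the libraries fall into 3 sets on the first principal component and any gene that follows it will correlate. Nearest to Tnfrsf9 were Amz2, Cryz and Cyb5r1 (Pearson r 0.989, 0.989 and 0.987). Nearest to Tnfrsf18 were Ndufv3, Chchd5 and Chchd10 (0.991, 0.989 and 0.989), and nearest to Tnfrsf4 were Cd81, Jdp2 and Osbpl3 (0.979, 0.978 and 0.976). Tnfrsf8 ran closest to Il24, Gem and Osm (0.972, 0.971 and 0.971). Cd27 ran closest to Arhgef3, Nab2 and Pdcd1 (0.885, 0.876 and 0.854), and Tnfrsf1b to Lax1, Tmc8 and Inpp5d (0.922, 0.921 and 0.91). Fas ran closest to Slu7, Rnf19a and Slc30a7 (0.879, 0.869 and 0.865). The nearest genes of Tnfrsf25, Zfp747, Zfand2a and Pnpla7 (0.889, 0.878 and 0.854), rested in part on 2 libraries, without which r was 0.782, 0.462 and 0.446.

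Of the 8 genes, 6 lie on chromosome 4 of GRCm38: Tnfrsf1b (ENSMUSG00000028599, chr4:145213463-145246870) and Tnfrsf8 (ENSMUSG00000028602, chr4:145267137-145315164) on the minus strand, and Tnfrsf9 (ENSMUSG00000028965, chr4:150914562-150946102), Tnfrsf25 (ENSMUSG00000024793, chr4:152115934-152120119), Tnfrsf4 (ENSMUSG00000029075, chr4:156013843-156016612) and Tnfrsf18 (ENSMUSG00000041954, chr4:156026164-156028895) on the plus strand. Cd27 (ENSMUSG00000030336) spans chr6:125232622-125237010 on the minus strand and Fas (ENSMUSG00000024778) chr19:34290666-34327772 on the plus strand. The Tnfrsf1b and Tnfrsf8 genes, 20.3 kb apart, had unlike patterns, with ranges of 55.3 to 113 CPM for Tnfrsf1b and 0.619 to 750.2 CPM for Tnfrsf8. Tnfrsf18 shares 414 exon bases with the antisense gene Gm16008, which measured 0.227 to 1.70 CPM. Tnfrsf9 overlaps Camta1 over 28781 bases and Cd27 lies within Vamp1, both on the opposite strand, with 0 shared exon bases.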

How the data were processed

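Poly-A RNA of 24 libraries, 4 for each of 6 groups taken from the sample labels, had been sequenced with a stranded kit, per the labels' protocols. The authors deposited 1 table of expected counts per library for 48526 genes; STAR, RSEM, edgeR and GRCm38 are named per the submitters' processing notes, without versions, with the strand setting not given in the sources used here. Of the nonzero values, 28.7% were not whole, and all were rounded. CPM (counts-per-million) used the rounded counts over the library sizes of the tested genes, scaled by TMM. Depth was 10506711 to 27064067 counts, so that 3 counts correspond to 0.110 to 0.286 CPM, a floor that covers counting error only.

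Differences were tested with edgeR 4.0.16 (R 4.3.3, limma 3.58.1), by quasi-likelihood F tests in 1 fit with 6 group terms and 18 residual degrees of freedom. Genes passed filterByExpr with a minimum count of 10 and a minimum total of 15, and p-values were adjusted by Benjamini and Hochberg over all 14560 genes tested, with a threshold of 0.05. Log2 CPM values use a prior count of 2, and fold changes the default prior of edgeR. The tests were checked on simulated data in which every gene had the common dispersion. For TLR7 against OVA at 72 h they called 19.4% of 2-fold changes and 95.9% of 4-fold changes, with 3 false calls. A comparison without a call therefore does not exclude a 2-fold change. For a gene with a wider spread it does not exclude a larger one. In the edgeR test of that comparison, Tnfrsf8 at a log2 fold change of 2.40 was not called (SE 1.48, adjusted p = 0.409). The alternatives were DESeq2 1.42.0, other scalings and filters (none, or a minimum count of 50), robust dispersion, a replicate block, only the groups compared, and leaving out each library, the 8 middle libraries or the 5 shallowest libraries. Named were all receptors and ligands, up to 3 called genes of each other list by size of change, and the 3 genes nearest to each receptor in Pearson correlation, with a mean of at least 5 CPM and a symbol that is not a bare gene-model name. The receptors and all lists were chosen with earlier results of these data known. Exon lengths and positions are from GENCODE M21 and start windows from RefSeq.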

Additional observations from a re-analysis of the deposited data

Results flagged for a closer look

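In 7 of the 48 sets of 4 libraries formed by 8 receptors and 6 groups, 1 library lay far from the others by Dixon's test, which chance does in about 1 of 20 groups. For Tnfrsf8 the lone high libraries were replicate 4 of TLR7 at 24 h at 76.8 CPM, replicate 2 of TLR2 at 24 h at 3.92 CPM, replicate 1 of OVA at 72 h at 366 CPM and replicate 3 of OVA at 24 h at 365 CPM. For Tnfrsf4 it was replicate 2 of TLR2 at 72 h at 337 CPM, the one library of its group outside the middle set. For Tnfrsf25, replicate 3 of OVA at 72 h was high at 13.8 CPM and replicate 2 of OVA at 24 h was low at 1.23 CPM. The causes of these values were not tested.

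The effect of the TLR7 agonist against peptide alone differed between 72 h and 24 h by an interaction test for 4 genes of the ligand and adaptor lists. Of all genes, 0.81% passed that test. The log2 difference of the effects was -3.03 for Tnfsf8, 2.45 for Lta, -1.27 for Cflar and -1.02 for Birc3. With 1 library left out, the call was lost in 3 of 16 fits for Tnfsf8, 11 for Lta, 12 for Cflar and 12 for Birc3.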

How the results depend on the processing

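The receptor calls depend most on which libraries enter. Between TLR7 and OVA at 72 h the 1 call, Cd27, became 0 with RLE scaling, library size only, no low-count filter, the stricter filter, only the groups compared, without the middle libraries and without the shallow ones. It held with DESeq2 (-0.63, adjusted p = 0.0214), robust dispersion and the replicate block. With peptide alone, the 1 time call became 0 with library size only, no filter, only the groups compared and without the shallow libraries, and 4 without the middle libraries. The time calls were 5 with the TLR7 agonist without the middle libraries and 0 without the shallow ones, and 3 with the TLR2 agonist without the shallow ones. Without the shallow libraries the joint test called 3, where 4519 of 14949 genes were called. A fit of only the groups compared gave 4 calls (Tnfrsf9, Tnfrsf18, Cd27, Tnfrsf8) for TLR7 against TLR2 at 72 h, where 3302 of 13304 genes were called. DESeq2 gave 1 (Tnfrsf8, adjusted p = 0.0157) for TLR2 against OVA at 24 h, where 345 of 14521 genes were called. Without the middle libraries, 6 neighbouring steps passed in place of 0.

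With 1 library left out, the calls ranged between 0 and 1 for TLR7 against OVA at 72 h, TLR7 against TLR2 at 72 h, the OVA times and the TLR7 interaction. They ranged between 1 and 5 for the TLR2 times, 1 and 4 for the TLR7 times and 4 and 6 for the joint test, and stayed at 0 elsewhere.

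Signs turned without the middle libraries for Tnfrsf4 (0.41), Tnfrsf18 (0.085), Tnfrsf25 (0.072) and Tnfrsf8 (1.55) in TLR2 against OVA at 24 h, and for Tnfrsf4 (-0.10) and Tnfrsf8 (3.26) in TLR7 against OVA at 24 h. They turned likewise for Tnfrsf4 (-0.51), Tnfrsf9 (-0.10), Tnfrsf18 (-0.39), Tnfrsf1b (-0.16) and Cd27 (-0.028) in TLR7 against TLR2 at 24 h, Tnfrsf9 (0.18) in TLR2 against OVA at 72 h, Tnfrsf4 (-0.30) in TLR7 against TLR2 at 72 h, Tnfrsf8 with peptide alone over time (7.17), Cd27 with TLR7 over time (0.030), and Tnfrsf25 over time with TLR7 (-0.10) and TLR2 (-0.10). In the interactions they turned for Tnfrsf8 (-1.27) and Tnfrsf1b (0.22) with TLR7, and for Tnfrsf8 (-1.62), Tnfrsf4 (-0.52) and Tnfrsf18 (-0.34) with TLR2. Their causes were not tested. With 1 library left out, TLR7 against OVA at 24 h gave -0.47 to 0.091 for Tnfrsf9, -0.69 to 0.12 for Tnfrsf18, -3.82 to 0.63 for Tnfrsf8 and -0.29 to 0.73 for Tnfrsf4. TLR2 against OVA at 72 h gave -0.48 to 0.038 for Tnfrsf9, -0.81 to 4.72 for Tnfrsf8 and -1.39 to 0.41 for Tnfrsf25. TLR7 against OVA at 72 h gave -1.03 to 0.76 for Tnfrsf25, the OVA times -5.30 to 2.55 for Tnfrsf8, and TLR7 against TLR2 at 72 h -0.022 to 0.33 for Tnfrsf4.

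Same-numbered replicates of 2 groups correlated in their deviations between -0.616 and 0.525, and in no comparison were all 4 over 0.1. The numbers were thus not taken to pair libraries. The lowest value set a middle OVA library at 24 h against a TLR7 library outside that set. Since such positions enter the deviations, the check cannot exclude a pairing. With the replicate block, the TLR7 times gave 2 calls, where 6428 of 14560 genes were called, and the joint test 6, where 9436 were. In that fit Tnfrsf8 turned to 0.53 in TLR2 against OVA at 72 h.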
